A study of Arabidopsis thaliana with 4 samples.

Results

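The chloroplast genome of *Arabidopsis thaliana* is annotated with 88 protein-coding genes, and their RNA was measured in dividing and in non-dividing tissue. The 88 genes were chosen by annotation alone, as the protein-coding entries of the chloroplast chromosome, out of 33476 annotations in the table. A plastid genome keeps genes for the photosynthetic complexes (photosystems I and II, cytochrome b6f, ATP synthase, the NDH complex and the large subunit of Rubisco) and genes for its own expression (subunits of a bacterial-type RNA polymerase and of the plastid ribosome). Many of them are transcribed together as operons. In young cells the plastids are still building their expression machinery, and in green leaves the photosynthetic genes are known to supply most of the messenger RNA. In plastids, unlike in the nucleus, a poly-A tail is known to mark RNA for decay, so poly-A selected libraries sample plastid transcripts unevenly.

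The experiment comprised 4 libraries of poly-A RNA from Columbia plants grown in short days for 4 weeks, sequenced on a Genome Analyser IIx. Dividing tissue was the shoot meristem with young leaves, and non-dividing tissue was the oldest 4 to 6 leaves. Each tissue was taken from 2 transgenic lines, which carry a histone H3 fused to GFP under its own promoter: HTR5::GFP (H3.3) gave replicate 1 and HTR13::GFP (H3.1) gave replicate 2. All 4 libraries therefore carry a tagged histone, each tissue of a line gave a single library, and line and replicate cannot be told apart. Nothing in the labels says how many plants were pooled. The deposited values are FPKM, fragments scaled to the length of the annotation and to the mapped reads of the library, and in the sentences below the HTR5::GFP value precedes the HTR13::GFP value within each tissue.

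The libraries summed to between 700884 and 715002 FPKM, and read depth behind single values was not recoverable from FPKM. The meristem and cell division markers followed the labels: *STM*, which maintains the shoot meristem, had 20.7 and 21.6 FPKM in dividing tissue and was listed at 0 in both non-dividing libraries. The 4 measured markers of that list were called higher in dividing tissue and the other two, *CLV3* and *WUS*, were listed at 0 in all 4 libraries, as were the flower and root hair markers *AP1* and *COBL9*. Of 3 genes of mature and ageing leaves, 2 were called lower in dividing tissue (*SEN1* and *ORE1*). Non-dividing replicate 1 stood apart from its partner in plastid RNA. Over the 52 chloroplast loci with signal in both non-dividing libraries, 40 were higher in replicate 1, with a median ratio of 1.15, and *psbA* differed most, by 2.61 on the log2 scale. Over all annotations tested below with signal in both, 7809 of 17546 were higher in replicate 1, with a median ratio of 0.98. In dividing tissue the median ratio of the chloroplast loci was 0.94, and 20 of 51 loci were higher in replicate 1. Main counts are therefore also given without that library.

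Not every chloroplast gene was open to a comparison. Of the 88 annotations, 81 coincided at both ends with a RefSeq plastid gene and 5 at 1 end, and 2 (ATCG00870 and ATCG01270) were not matched and are named by identifier only. The 2 inverted repeats, at C:84171-110434 and C:128215-154478, are 26264 bp each and identical in the RefSeq sequence of TAIR10.1. The 7 annotations that have a second copy there had the same FPKM at both copies in every library, so that 81 loci were distinct and the copies cannot be told apart. A mean of at least 1 FPKM was required for the test, which 66 annotations (61 loci) passed. Another 9 had some signal but a mean below 1, and 13 were listed at 0 in all 4 libraries.

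Values of 0 were mostly those of short genes. Among the 10 members shorter than 120 bp, 9 were listed at 0 in every library and the exception, *rpl36* of the large ribosomal subunit, had 11.1 FPKM in dividing replicate 1 alone. Of 60 members of at least 300 bp, 50 were above 0 in all 4 libraries, and 2 were at 0 in all 4, *rps16* of the small ribosomal subunit and *ccsA*, which acts in cytochrome c assembly. The library products formed a band at 200 to 300 bp. The shortest member is *petN*, a cytochrome b6f subunit of 90 bp at C:28089-28178 on the plus strand, and *psbT*, a photosystem II subunit of 102 bp at C:74082-74183 on the plus strand, lies between *psbB* and *psbH*. Their coding sequences are shown in full as examples of the 9 members shorter than 120 bp that were listed at 0, with the start codon in capitals (RefSeq, TAIR10.1).
petN: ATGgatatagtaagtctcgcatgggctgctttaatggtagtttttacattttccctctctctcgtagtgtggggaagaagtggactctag
psbT: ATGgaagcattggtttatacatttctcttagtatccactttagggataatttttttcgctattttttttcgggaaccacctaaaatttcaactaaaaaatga

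Both genes were listed at 0 in all libraries, although *psbB* and *psbH*, the neighbours of *psbT*, had signal in each of them. The other members at 0 throughout were *psbI*, *psbM* and *psbL* (photosystem II), *psaI* (photosystem I), *petL* and *petG* (cytochrome b6f), the annotation of the first exon of *rps12*, and the pair ATCG00870 and ATCG01270. The next longer members had values. *psbF*, which binds the haem of cytochrome b559 with *psbE*, is 120 bp long and *psbJ* is 123 bp long, and both had values above 0 in all 4 libraries. A listed 0 is therefore not read here as absence of the transcript. What set these values to 0 was not tested.

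**Figure D1:**
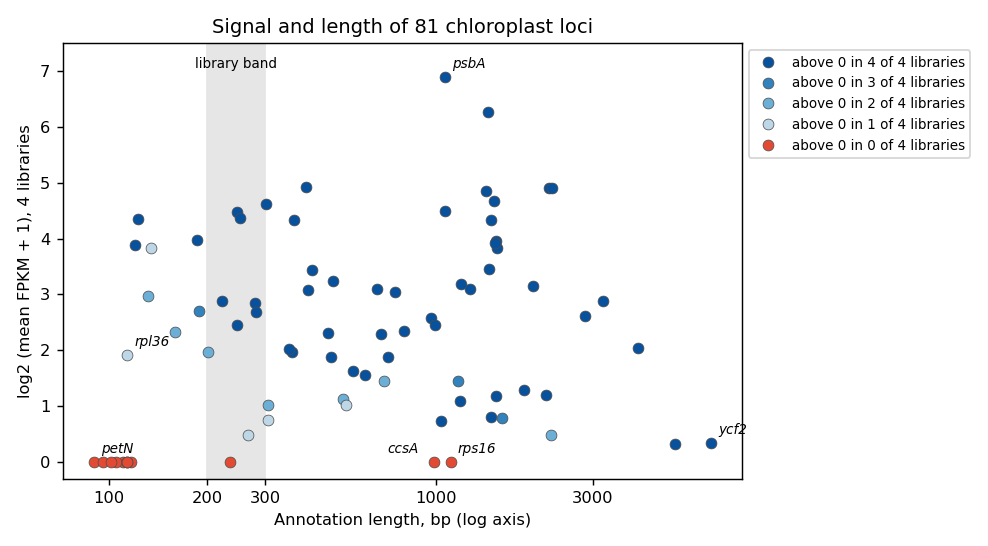
Length of each of 81 chloroplast loci in bp (log axis) against log2 of the mean FPKM + 1 over 4 libraries, coloured by the number of libraries with a value above 0, with the 200 to 300 bp band of the library products shaded. Loci shorter than 120 bp lie at 0 apart from *rpl36*, whereas loci such as *ccsA* and *rps16* are at 0 despite their length.

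Some members share bases with another annotation, and reads in a shared stretch cannot be given to 1 gene. Between genes on the same strand this holds whether or not the libraries kept strand, which the sources used here do not say. Such sharing concerns 9 members. The junctions that matter below are those of *psbD* with *psbC* (C:33720-33772, plus strand) and of *atpB* with *atpE* (C:52648-52675 with flanks, minus strand). Both are printed because these genes are among the members most strongly lower in dividing tissue and are not independent of each other. Capitals mark the start codon of *psbC* and the stop codon of *psbD* in the first sequence, and in the second the 4 shared bases, which hold the start of *atpE* and the stop of *atpB*, with 12 bases on each side.
psbD-psbC: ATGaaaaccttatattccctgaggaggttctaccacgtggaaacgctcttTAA
atpB-atpE: taaattgaagaaATGAccttaaatcttt

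The summed signal of the 88 genes was smaller in dividing tissue, but the 2 lines differed in how much. The sum was 471.7 and 500.0 FPKM in dividing tissue, against 1402.8 and 736.5 FPKM in non-dividing tissue, so that each dividing library was below both non-dividing ones. The ratio of the means was 0.454, or 0.336 between the HTR5::GFP libraries and 0.679 between those of HTR13::GFP. A permutation test of 2 against 2 libraries cannot give a p below 0.33, and the exact two-sided p was 0.33. As a share of all FPKM, the chloroplast coding genes made up 0.0666% and 0.0706% of the dividing libraries, against 0.196% and 0.105% of the non-dividing libraries. Leaving out *psbA* brought the ratio to 0.568, and leaving out non-dividing replicate 1 brought it to 0.660. In bulk tissue, fewer cells or plastids of a kind and less RNA in each cannot be told apart.

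On the deposited scale the difference lay in the photosynthesis genes. Their FPKM summed to 260 and 292 in dividing tissue, against 1165 and 545 in non-dividing tissue, over 44 loci counted once. The 26 loci of the genetic system (RNA polymerase and ribosome) summed to 176 and 171 in dividing tissue, against 176 and 145 in non-dividing tissue. These sums overlapped between the tissues as deposited. Scale factors from nuclear genes, used below, were 1.13 and 1.14 in dividing libraries, against 0.845 and 0.859 in non-dividing ones. Division by them lowers the dividing sums and raises the non-dividing ones, and the overlap is then lost. Within each library, photosynthesis FPKM were 1.48 and 1.71 times those of the genetic system in dividing tissue, against 6.62 and 3.77 times in non-dividing tissue (1.59 ± 0.16 and 5.20 ± 2.02, SD, n = 2 each). This ratio does not depend on how libraries are scaled. It remained apart without *psbA*, at 1.43 and 1.66 in dividing tissue, against 4.39 and 3.33 in non-dividing tissue. The exact two-sided p was 0.33 in both cases, the smallest that 4 libraries allow.

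**Figure D2:**
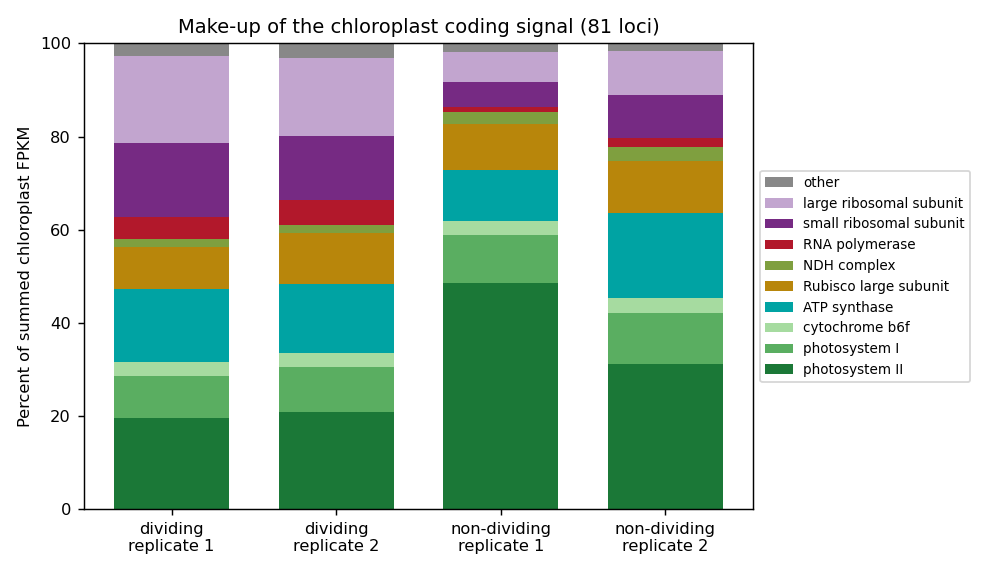
Percent of the summed chloroplast FPKM (81 loci, 1 copy of repeated genes) held by each functional group in the 4 libraries, dividing tissue on the left. Photosynthesis groups together hold 58.0 and 61.1% in dividing tissue, against 85.3 and 77.7% in non-dividing tissue, and photosystem II alone holds 19.7 and 20.9%, against 48.6 and 31.2%.

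For single genes limma was run on log2(FPKM + 1) across all 17967 annotations with a mean of at least 1 FPKM, and a gene was called at a Benjamini-Hochberg adjusted p below 0.05. Of the 66 chloroplast genes tested, 10 were called higher in dividing tissue, where 51.7% of all annotations tested were higher, and 29 were called lower, where 18.2% of all annotations were lower. The other 27 passed in neither direction. The median log2 fold change of the members was -0.63, against 0.38 for all annotations tested. With 1 copy of each repeated gene the counts were 10 higher, 25 lower and 26 neither among 61 loci. Of 20 mitochondrial protein-coding genes tested, 1 was called higher and 6 lower, with a median of -0.12.

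Since the median annotation was shifted by 0.38, the libraries were also rescaled on nuclear genes, which brought that median to 0.01. Then 2 members were called higher (background 30.4%), *rpoC2* among them, and 38 were called lower (background 31.2%), with a member median of -0.93. The 25 loci called lower above were also called lower after rescaling. Without non-dividing replicate 1, 7 members were higher (background 46.8%) and 26 lower (background 16.7%), with a median of -0.37. Without non-dividing replicate 2 the counts were 6 higher (background 48.0%) and 41 lower (background 16.4%). Calls were fewest without a dividing library: 5 higher and 13 lower either without replicate 1 (backgrounds 33.1% and 10.4%) or without replicate 2 (backgrounds 31.5% and 10.4%). With the transgenic line as a block, 10 members were higher (background 54.1%) and 38 lower (background 20.2%).

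**Figure D3:**
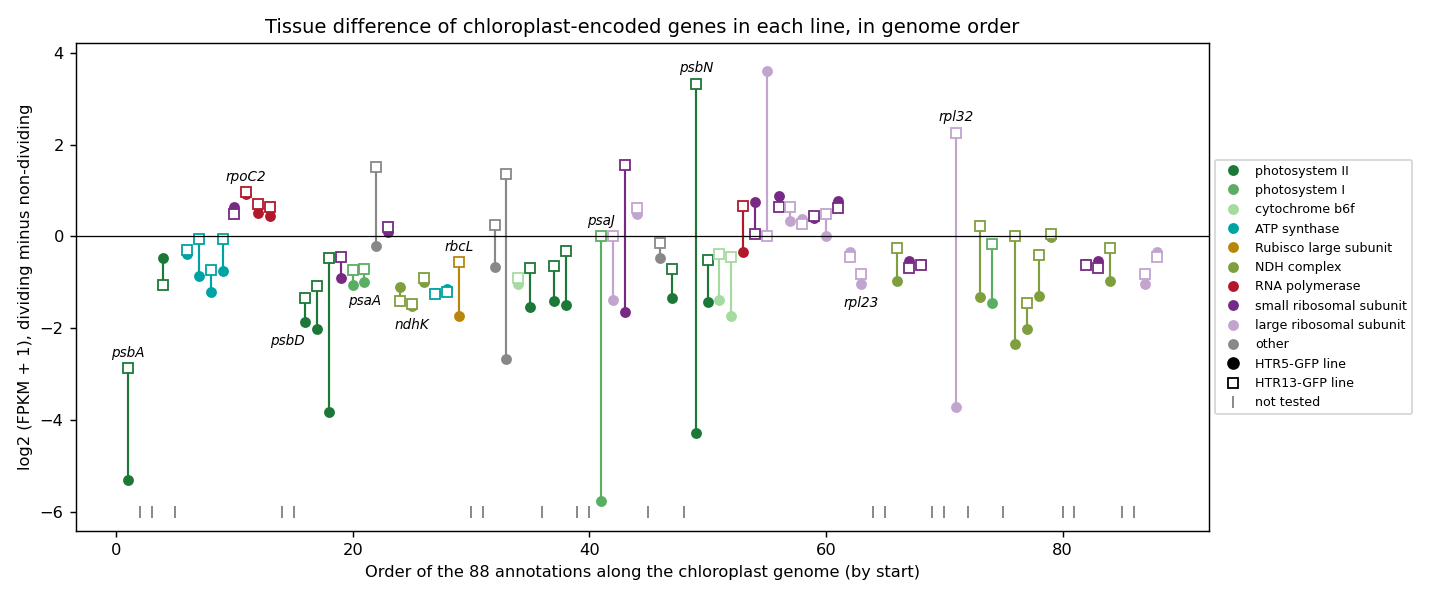
Difference in log2(FPKM + 1), dividing minus non-dividing, for each chloroplast gene in its order along the genome, with filled circles for the HTR5::GFP line and open squares for the HTR13::GFP line, coloured by function; ticks at the bottom mark genes not tested. *psbA* lies lowest among the genes that moved alike in both lines, the polymerase genes around *rpoC2* lie above 0, and *psaJ*, *psbN* and *rpl32* differ between the lines.

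Photosystem II, which splits water, had 11 of its 15 loci tested, and 7 were called lower and none higher (median -1.03). *psbA* encodes the D1 protein of the reaction centre and lies at C:383-1444 on the minus strand. It had 9.06 and 7.92 FPKM in dividing tissue, against 393 and 64.3 FPKM in non-dividing tissue. Both dividing libraries were far below both non-dividing ones, which themselves differed widely. Its log2 fold change was -4.08 (SE 0.83, adjusted p = 0.0094). It was -2.78 without non-dividing replicate 1 and -5.38 without non-dividing replicate 2. Without dividing replicate 1 it was -4.17, and without dividing replicate 2 it was -3.99. The call did not hold without dividing replicate 1 (adjusted p = 0.107) or without dividing replicate 2 (adjusted p = 0.115). *psbA* held 1.92 and 1.58% of the chloroplast sum in dividing tissue, against 28.0 and 8.73% in non-dividing tissue.

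*psbD*, for the D2 protein that pairs with D1, had 9.76 and 10.4 FPKM in dividing tissue, against 37.95 and 28.1 FPKM in non-dividing tissue (log2 fold change -1.60, SE 0.16, adjusted p = 0.00103). *psbC*, for the antenna protein CP43, had 12.1 and 14.97 FPKM in dividing tissue, against 52.0 and 32.8 FPKM in non-dividing tissue (log2 fold change -1.55, SE 0.24, adjusted p = 0.0038). These overlapping genes fell together, and their ratio stayed between 1.17 and 1.44 in the 4 libraries. *psbC* no longer passed without dividing replicate 1 (adjusted p = 0.0692) or replicate 2 (adjusted p = 0.0535), whereas *psbD* passed in each case. *psbB*, for the antenna protein CP47, had 8.44 and 8.04 FPKM in dividing tissue, against 22.8 and 13.7 FPKM in non-dividing tissue, and was called lower, as were *psbK*, *psbF* and *psbH*. Without dividing replicate 1 or replicate 2 the calls of *psbB* (adjusted p = 0.125 and 0.138), *psbF* (0.0854 and 0.0522) and *psbH* (0.189 and 0.15) were lost. That of *psbK* was lost without dividing replicate 2, non-dividing replicate 1 or non-dividing replicate 2 (adjusted p = 0.055, 0.0681 and 0.0756).

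*psbE* and *psbJ* of the *psbE* operon were among the 12 members with the highest mean and showed the spread of the non-dividing libraries. *psbE* had 11.95 and 13.6 FPKM in dividing tissue, against 35.6 and 17.3 FPKM in non-dividing tissue (log2 fold change -0.91, SE 0.33, adjusted p = 0.0594). *psbJ* had 12.9 and 9.46 FPKM in dividing tissue, against 39.1 and 15.9 FPKM in non-dividing tissue (log2 fold change -1.11, SE 0.43, adjusted p = 0.0669). Neither passed, although the groups did not overlap, and with the line as a block both did (adjusted p = 0.0166 for *psbE* and 0.0022 for *psbJ*). *psbZ* also gained its call with the block (adjusted p = 0.062 without it and 0.0277 with it) and was listed at 0 in dividing replicate 1.

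Photosystem I had 4 of 5 loci tested. *psaA* and *psaB* encode the paired reaction centre proteins. *psaA* had 19.1 and 22.0 FPKM in dividing tissue, against 38.8 and 36.6 FPKM in non-dividing tissue (log2 fold change -0.85, SE 0.10, adjusted p = 0.00185). *psaB* had 18.2 and 21.8 FPKM in dividing tissue, against 38.8 and 36.9 FPKM in non-dividing tissue (log2 fold change -0.90, SE 0.11, adjusted p = 0.00209). These were close between lines and were called lower under every leave-one-out. *psaC*, for the iron-sulphur subunit, had 3.03 and 2.22 FPKM in dividing tissue, against 10.0 and 2.63 FPKM in non-dividing tissue, and did not pass (adjusted p = 0.223, or 0.0363 with the line as a block). *psaJ* was listed at 0 in 3 libraries and had 53.1 FPKM in non-dividing replicate 1.

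Of the cytochrome b6f genes, which code for the complex between the photosystems, 3 of 6 were tested and 2 were called lower. *petA*, for cytochrome f, had 2.97 and 3.10 FPKM in dividing tissue, against 7.19 and 6.70 FPKM in non-dividing tissue (log2 fold change -0.98, adjusted p = 0.00105). *petD*, for subunit IV, was called lower by 1.09 on the log2 scale, but not without dividing replicate 1 (adjusted p = 0.243) or replicate 2 (adjusted p = 0.165). *petB*, for cytochrome b6, had 6.39 and 6.54 FPKM in dividing tissue, against 18.4 and 8.77 FPKM in non-dividing tissue. Its log2 fold change of -0.88 (SE 0.33) did not pass (adjusted p = 0.0606). It passed with the line as a block (adjusted p = 0.0118), after rescaling (adjusted p = 0.0267), and without non-dividing replicate 1 (adjusted p = 0.0435) or replicate 2 (adjusted p = 0.0032).

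The ATP synthase genes lie in 2 operons and differed by unequal amounts. All 6 were tested and 4 were called lower (median -0.71). *atpB*, for the catalytic beta subunit, had 15.1 and 14.6 FPKM in dividing tissue, against 34.2 and 34.7 FPKM in non-dividing tissue (log2 fold change -1.17, SE 0.08, adjusted p = 0.000455). *atpE*, for the epsilon subunit, had 18.2 and 15.97 FPKM in dividing tissue, against 44.1 and 39.6 FPKM in non-dividing tissue (log2 fold change -1.25, SE 0.11, adjusted p = 0.000738). This pair was called lower under each leave-one-out. *atpH*, for the ring subunit of the membrane rotor, had 13.5 and 14.7 FPKM in dividing tissue, against 32.4 and 25.1 FPKM in non-dividing tissue (log2 fold change -0.97, SE 0.14, adjusted p = 0.00337), with an adjusted p of 0.0616 without dividing replicate 1 and 0.053 without replicate 2. *atpA*, for the alpha subunit, differed less, by -0.34 on the log2 scale (adjusted p = 0.0171). Its call was lost without dividing replicate 1 (adjusted p = 0.11), dividing replicate 2 (adjusted p = 0.0909) or non-dividing replicate 1 (adjusted p = 0.0526). *atpF* and *atpI* passed in neither direction.

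*rbcL* encodes the large subunit of Rubisco, the enzyme that fixes CO2, and lies next to *atpB* on the other strand at C:54958-56397. It had 39.8 and 52.7 FPKM in dividing tissue, against 135 and 78.0 FPKM in non-dividing tissue (log2 fold change -1.15, SE 0.29, adjusted p = 0.0194). In dividing tissue it was the member with the highest FPKM, whereas in non-dividing tissue *psbA* was higher than *rbcL* in replicate 1 only. The call was lost without dividing replicate 1 (adjusted p = 0.173) or replicate 2 (adjusted p = 0.10).

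The NDH complex, which passes electrons back around photosystem I, had low values throughout. Of its 11 loci, 9 were tested and 4 were called lower. *ndhK* had 1.61 and 1.498 FPKM in dividing tissue, against 6.44 and 5.92 FPKM in non-dividing tissue (log2 fold change -1.49, SE 0.11, adjusted p = 0.000472). *ndhJ* had 1.30 and 1.06 FPKM in dividing tissue, against 3.89 and 4.47 FPKM in non-dividing tissue (log2 fold change -1.25, SE 0.13, adjusted p = 0.00109). With *ndhC* (log2 fold change -0.95) they form 1 operon, and the calls of all 3 held under each leave-one-out. *ndhI* was listed at 0 in both dividing libraries and had 3.03 and 1.71 FPKM in non-dividing tissue (adjusted p = 0.0021), and no fold is given for it. *ndhB*, read with its copy in the other repeat, had 0.775 and 1.06 FPKM in dividing tissue, against 2.46 and 1.44 FPKM in non-dividing tissue (log2 fold change -0.60, SE 0.21, adjusted p = 0.0507, or 0.0336 with the line as a block). *ndhH* was nearly equal, with 1.08 and 1.19 FPKM in dividing tissue, against 1.09 and 1.13 FPKM in non-dividing tissue.

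**Figure D4:**
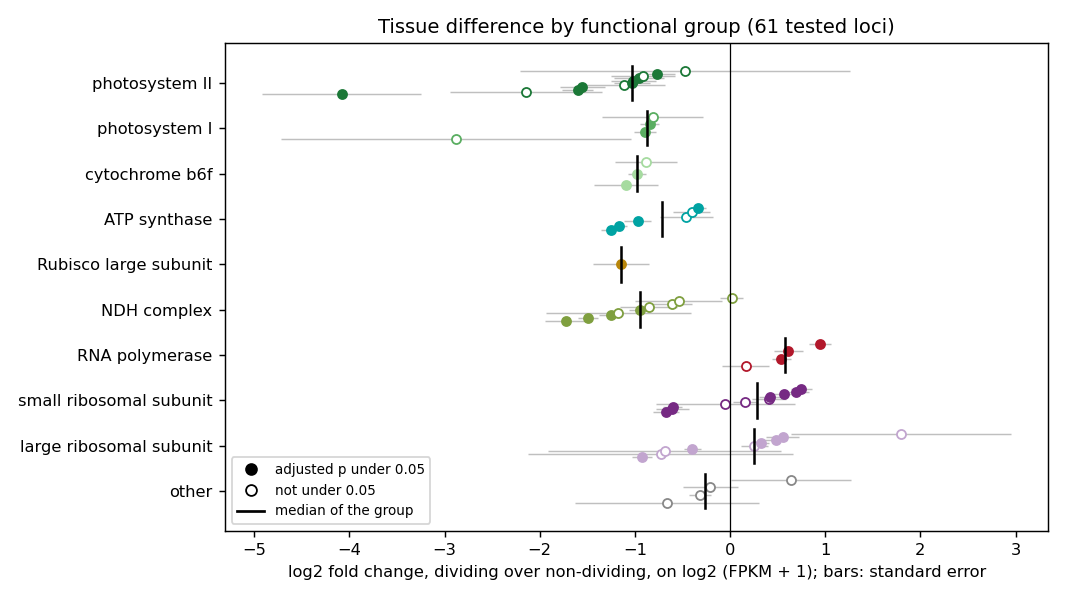
Log2 fold change, dividing over non-dividing, with its standard error for 61 tested loci by functional group; filled points had an adjusted p below 0.05 and vertical lines are group medians. Medians run from -1.15 (*rbcL*) and -1.03 (photosystem II) to 0.58 (RNA polymerase), and none of the 34 tested photosynthesis loci was called higher.

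The genes called higher in dividing tissue were all of the genetic system. Of its 26 loci, 23 were tested, and 10 were called higher and 5 lower (median 0.32), whereas of 34 photosynthesis loci tested none was called higher and 20 were called lower (median -0.97). Relative to the shift of all annotations the first median lay near 0, at -0.07 after rescaling, with 2 higher and 5 lower, against -1.32 for photosynthesis, with 27 lower. Without non-dividing replicate 1 the genetic system had 6 higher and 4 lower, and photosynthesis had 19 lower. In both lines alike, 29 of the 34 photosynthesis loci were lower in dividing tissue and 13 of the 23 genetic system loci were higher. The like share over all annotations was not taken, and 51.7% of those tested were called higher. The 13 of 23 are therefore not read as particular to the genetic system.

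The plastid-encoded RNA polymerase is a bacterial-type enzyme that transcribes most photosynthesis genes. Its subunit genes *rpoB*, *rpoC1* and *rpoC2* lie in 1 operon and all 3 were called higher. *rpoC2* had 4.13 and 4.66 FPKM in dividing tissue, against 1.70 and 1.91 FPKM in non-dividing tissue (log2 fold change 0.94, SE 0.12, adjusted p = 0.00189). It passed under every leave-one-out and after rescaling. *rpoC1* had 5.51 and 7.32 FPKM in dividing tissue, against 3.56 and 4.08 FPKM in non-dividing tissue (log2 fold change 0.61, SE 0.15, adjusted p = 0.0187). *rpoB* had 7.52 and 7.87 FPKM in dividing tissue, against 5.27 and 4.70 FPKM in non-dividing tissue (log2 fold change 0.54, SE 0.10, adjusted p = 0.00691). The call of *rpoC1* was lost without dividing replicate 2 (adjusted p = 0.104) or non-dividing replicate 1 (adjusted p = 0.0804), and that of *rpoB* without dividing replicate 1 (adjusted p = 0.0659) or replicate 2 (adjusted p = 0.0798). After rescaling neither passed, with log2 fold changes of 0.27 for *rpoC1* (adjusted p = 0.172) and 0.18 for *rpoB* (adjusted p = 0.178). *rpoA*, for the alpha subunit, is encoded elsewhere, at the end of a ribosomal operon. It had 3.91 and 5.67 FPKM in dividing tissue, against 5.19 and 3.22 FPKM in non-dividing tissue, so that its groups overlapped.

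Among the ribosomal protein genes, those for the small subunit had 4 called higher and 3 lower of 10 loci tested, and those for the large subunit 3 higher and 2 lower of 9. *rps19* had 8.77 and 6.93 FPKM in dividing tissue, against 4.77 and 4.17 FPKM in non-dividing tissue (log2 fold change 0.69, SE 0.14, adjusted p = 0.00943). *rps2* had 3.69 and 3.09 FPKM in dividing tissue, against 2.00 and 1.92 FPKM in non-dividing tissue (log2 fold change 0.56, SE 0.12, adjusted p = 0.011). In both genes the dividing libraries were above the non-dividing ones. *rps2* passed under each leave-one-out, and *rps19* lost its call without dividing replicate 1 (adjusted p = 0.0762). *rpl20* had 3.20 and 4.48 FPKM in dividing tissue, against 2.02 and 2.55 FPKM in non-dividing tissue (log2 fold change 0.55, SE 0.18, adjusted p = 0.0387), and lost its call without any 1 of the 4 libraries (adjusted p from 0.0539 to 0.165). *rpl14*, *rps3* and *rpl16* were called higher by 0.48, 0.42 and 0.32 on the log2 scale. *rpl16* lost its call without any 1 library (adjusted p from 0.0658 to 0.138). *rpl14* lost it without dividing replicate 2, non-dividing replicate 1 or non-dividing replicate 2 (adjusted p = 0.093, 0.0541 and 0.0627), and *rps3* without dividing replicate 1, dividing replicate 2 or non-dividing replicate 2 (adjusted p = 0.161, 0.101 and 0.0775). After rescaling *rps19*, *rps2*, *rpl20*, *rpl14*, *rps3* and *rpl16* did not pass and *rpl16* changed sign (-0.07).

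The 5 ribosomal genes called lower occupied other places in the genome. *rps14* is cotranscribed with *psaA* and *psaB*, and it had 16.9 and 19.1 FPKM in dividing tissue, against 32.4 and 26.3 FPKM in non-dividing tissue (log2 fold change -0.67, SE 0.13, adjusted p = 0.00844), with an adjusted p of 0.0945 without dividing replicate 1 and 0.0656 without replicate 2. The other 4 (*rpl2*, *rpl23*, *rps7* and the repeat-borne exons of *rps12*) lie in the inverted repeat. The calls of *rpl2* (adjusted p = 0.104 and 0.0956) and *rps7* (0.0504 and 0.0578) were lost without dividing replicate 1 or replicate 2. *rpl23* had 3.22 and 3.63 FPKM in dividing tissue, against 7.65 and 7.10 FPKM in non-dividing tissue, and was called lower under each leave-one-out. *rps12*, whose messenger is joined from separate transcripts, had 3.48 and 2.56 FPKM in dividing tissue, against 5.79 and 4.46 FPKM in non-dividing tissue (log2 fold change -0.61, SE 0.17, adjusted p = 0.0282). Leaving out dividing replicate 1, dividing replicate 2 or non-dividing replicate 1 ended that call (adjusted p = 0.0717, 0.178 and 0.11). All 5 tested loci of the repeat, *ndhB* included, were lower in dividing tissue in both lines. In the large single copy region, outside the repeats, 27 of 48 tested loci were lower in both lines. The like share over all annotations was not taken, so this direction is not read as particular to the repeat. FPKM of repeated genes also depend on how reads with 2 matching places were divided, which is not given in the sources used here.

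**Figure D5:**
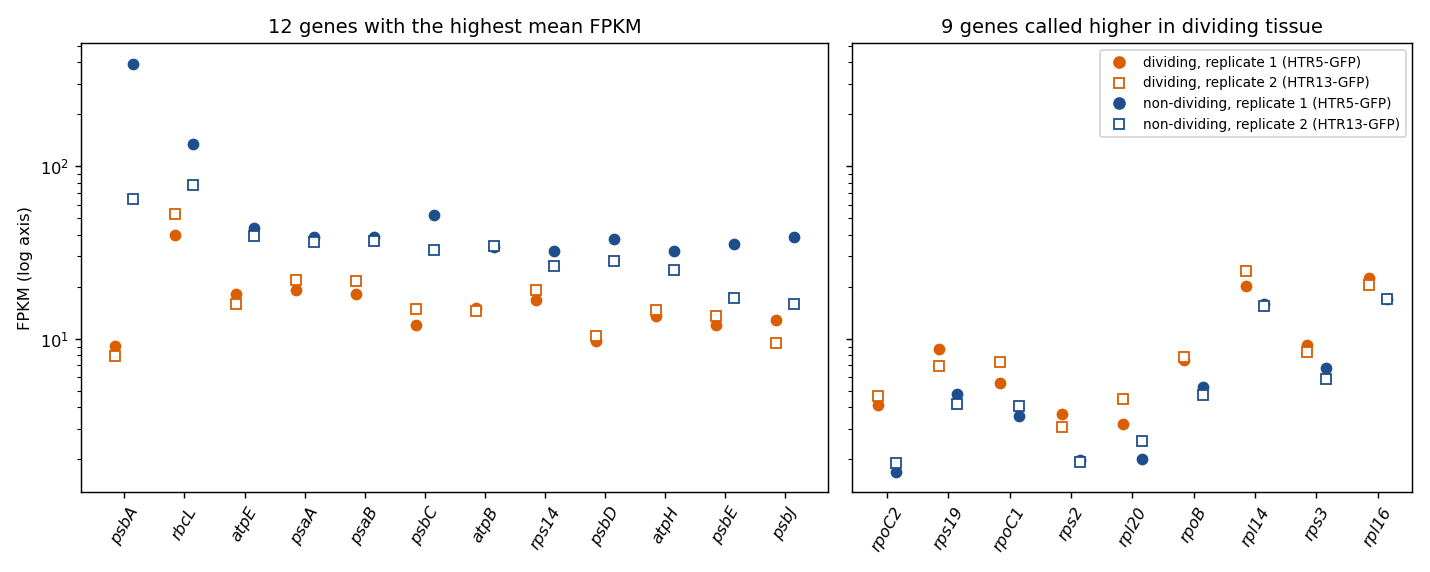
FPKM in each library (log axis) of the 12 chloroplast genes with the highest mean and of 9 called higher in dividing tissue, with orange symbols for dividing and blue for non-dividing tissue, circles for HTR5::GFP and squares for HTR13::GFP. On the left both dividing libraries lie below both non-dividing ones for every gene, with the widest gap for *psbA*. The like share over all annotations was not taken. Genes on the right were selected by their call in these same libraries, so their higher dividing values follow from that choice.

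Read along the genome, direction changed within and between neighbouring transcription units. The *rpoB* operon (3 of 3 higher) is followed on the same strand by *rps2*, also higher, and then by *atpI*, *atpH*, *atpF* and *atpA*, of which 2 were called lower. *rps2* and *atpI* are adjacent, at C:15013-15723 and C:14021-14770. The FPKM of *rps2* were 0.662 and 0.476 times those of *atpI* in dividing tissue, against 0.197 and 0.285 times in non-dividing tissue. A like step lay at the edge of the inverted repeat, in the ribosomal operon that runs from *rpl23* to *rpoA*. Its 2 genes in the repeat, *rpl23* and *rpl2*, were called lower, and of the other 9, 5 were called higher. *rps19*, which crosses the boundary, had 0.737 and 0.571 times the FPKM of *rpl2* in dividing tissue, against 0.310 and 0.247 times in non-dividing tissue. Calls in other units went in 1 direction: *psaA*, *psaB* and *rps14* (3 of 3 lower), *ndhC*, *ndhK* and *ndhJ* (3 of 3 lower), *atpB* and *atpE* (2 of 2 lower), and 3 of the 4 genes tested of the *psbB* operon (lower). In the unit from *ndhH* to *ndhD* 1 of 6 tested was called lower.

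The remaining members have varied tasks, and none was called in the fit of all 4 libraries as deposited, without the block. *clpP*, for a protease subunit, had 6.39 and 7.57 FPKM in dividing tissue, against 9.27 and 8.52 FPKM in non-dividing tissue (log2 fold change -0.31, SE 0.12, adjusted p = 0.0597, or 0.0477 with the line as a block). After rescaling on nuclear genes *clpP* was called lower (log2 fold change -0.68, adjusted p = 0.0058). *accD*, for a subunit of the enzyme that starts fatty acid synthesis, had 0.667 and 0.464 FPKM in dividing tissue, against 1.37 and 0.519 FPKM in non-dividing tissue and was not tested. *matK*, a splicing factor gene inside a transfer RNA intron, had 0.514 and 0.672 FPKM in dividing tissue, against 1.70 and 0 FPKM in non-dividing tissue. *ycf1* and *ycf2*, the longest reading frames, stayed below 1 FPKM everywhere: *ycf2* had 0.165 and 0.278 FPKM in dividing tissue, against 0.392 and 0.249 FPKM in non-dividing tissue, and the longer *ycf1* annotation had 0.216 and 0.228 FPKM in dividing tissue, against 0.30 and 0.223 FPKM in non-dividing tissue.

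Listed zeros were scattered over libraries for 15 members with signal elsewhere, 11 of which were tested. They were *matK*, *psbZ*, *ycf3*, *cemA*, *psaJ*, *rpl33*, *rps18*, *psbN*, *rpl36*, *ndhF*, *rpl32*, *ndhE*, *ndhG*, *ndhI* and *rps15*. Of the tested ones *ndhI* alone was called. *ndhG* was above 0 in non-dividing replicate 1 alone, at 4.08 FPKM, and *rps15* in dividing replicate 1 alone, at 1.59 FPKM. *ndhF* was listed at 0 in both dividing libraries and had 1.09 and 0.50 FPKM in non-dividing tissue.

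Composition was set beside level as a description. Over 58 tested loci with a matched sequence, GC content and log2 mean FPKM had Pearson's r of 0.51 and Spearman's rho of 0.49. For the longest run of A and the log2 fold change they were 0.33 and 0.39. The other pairs examined were weaker. GC content and the log2 fold change had -0.20 and -0.28, and the longest run of A and the log2 mean had -0.17 and -0.17. Over 61 loci, length had 0.054 and 0.051 with the log2 mean, and 0.17 and 0.14 with the log2 fold change. Genes share libraries, operons and base composition, so these are not independent points. Median GC content was 41.7% in photosystem II genes and 36.6% in RNA polymerase genes. The median longest run of A was 3 bases and 11.5 bases. Median length also differed, at 222 bp and 3026.5 bp, so these runs were not compared at equal length.

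Plastid ribosomal RNA, which poly-A selection is meant to remove, also varied between libraries, and none of its annotations was called without the block. The 16S RNA had 156 and 212 FPKM in dividing tissue, against 1414 and 335 FPKM in non-dividing tissue (adjusted p = 0.0547, or 0.0146 with the line as a block), and the 23S RNA had 117 and 129 FPKM in dividing tissue, against 1162 and 218 FPKM in non-dividing tissue (adjusted p = 0.0662, or 0.0121 with the block). As with *psbA*, non-dividing replicate 1 was highest by far. The 4.5S RNA, 103 bp long, had 13.1 and 17.8 FPKM in dividing tissue, against 80.2 and 10.2 FPKM in non-dividing tissue, and the 5S RNA was above 0 in non-dividing replicate 1 only, at 12.9 FPKM. The part of this in the differences of the coding genes was not tested. The 37 transfer RNA annotations of the chloroplast were listed at 0 in all libraries.

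Transcription in plastids depends on nuclear genes, and 26 of these were examined as a list. Of them 18 were called higher, 2 lower and 6 neither (15 higher and 5 lower after rescaling), where 52.1% of the nuclear protein-coding genes tested were called higher and 18.1% lower. All 12 polymerase-associated proteins (PAPs), which assemble around the plastid-encoded polymerase, were called higher, with a median log2 fold change of 1.497, and 11 were called after rescaling. *PAP4* had 21.6 and 23.4 FPKM in dividing tissue, against 2.81 and 3.81 FPKM in non-dividing tissue (log2 fold change 2.46), and *PAP3* followed with 2.32. *RPOTp*, the phage-type polymerase of plastids, had 8.47 and 12.3 FPKM in dividing tissue, against 1.60 and 1.37 FPKM in non-dividing tissue, and was called higher. *RPOTmp*, the phage-type polymerase of plastids and mitochondria, had 1.57 and 1.95 FPKM in dividing tissue, against 1.76 and 1.46 FPKM in non-dividing tissue, and did not pass (log2 fold change 0.08, adjusted p = 0.62).

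The sigma factors, which direct the polymerase to promoters, did not move as 1 group. *SIG6* was called higher, with 39.8 and 40.9 FPKM in dividing tissue, against 21.3 and 21.4 FPKM in non-dividing tissue. *SIG5*, which in *Arabidopsis* is induced by light and stress and acts on the *psbD* promoter, had 10.7 and 11.2 FPKM in dividing tissue, against 53.3 and 70.0 FPKM in non-dividing tissue (log2 fold change -2.38, SE 0.15, adjusted p = 0.000367). *SIG1* was also called lower, by 0.43 on the log2 scale, and *SIG2*, *SIG3* and *SIG4* passed in neither direction (log2 fold changes of 0.09, 0.20 and 0.21). Among 6 genes of plastid RNA decay and stability, 4 were called higher, with *PNP*, for the phosphorylase that also adds and removes tails, at 1.25 on the log2 scale. After rescaling these 6 had 2 higher and 2 lower.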

How the data were processed

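The authors mapped mRNA-Seq reads onto TAIR9, per the paper and the submitters' processing notes with SAMtools 0.1.13, Bowtie 0.12.7 and TopHat 1.2.0, then ran Cufflinks 0.9.3 and deposited 1 FPKM per annotation and library. The files hold no read counts, so count tests and counting intervals were not used. Annotation starts were raised by 1 to count from 1. Names were taken where chloroplast coordinates coincided with RefSeq (TAIR10.1), which also gave the sequences and the GC content.

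Tissues were compared with limma 3.58.1 (R 4.3.3; lmFit, eBayes with a trend, two-sided) on log2(FPKM + 1), taking annotations whose FPKM averaged at least 1, with Benjamini-Hochberg adjustment over all 17967 of them. Fold changes are on this scale, which understates those of low genes. Libraries of a tissue are separate samples, but nothing says that the plants were grown apart, so p-values measure only the spread between these samples. Same-numbered libraries came from the same transgenic line, and their deviations from the tissue means had a Pearson correlation of 0.257 over all annotations tested and -0.33 over the 66 chloroplast genes. Summed FPKM were compared by exact permutation. Other steps used pandas 2.3.3, numpy 2.4.6, matplotlib 3.10.9 and scipy 1.17.1 under Python 3.11.15. The fit had been tested on simulated data with known changes.

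The genes, lists and tests were chosen with earlier results of these data known. Given in full were the 12 genes with the highest mean FPKM, the 6 largest changes in each direction among genes past the threshold that moved alike in both lines, and landmark genes. Genes of neighbouring units and of functional groups are given by counts, and others named with values were chosen after their values were seen. A gene that these rules would name is not reported here. Alternatives covered the pseudocount (0.1 and 10), the filter, the replicate block, rescaling, quantile normalization, repeated, short or overlapping genes, and leaving out each library. The ChIP-Seq data were not analysed here.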

Additional observations from a re-analysis of the deposited data

Results flagged for a closer look

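For 9 of 61 tested chloroplast loci the tissue difference had opposite signs in the 2 transgenic lines, each value resting on 1 dividing and 1 non-dividing library, and the difference between lines was not tested. The log2 ratio of dividing over non-dividing tissue, given for the HTR5::GFP line and then the HTR13::GFP line, was -0.22 and 1.503 for *ycf3*, -0.66 and 0.24 for *ycf4*, -2.68 and 1.36 for *cemA*, -1.65 and 1.55 for *rps18* and -4.28 and 3.33 for *psbN*. It was -0.33 and 0.66 for *rpoA*, -3.72 and 2.26 for *rpl32*, -1.31 and 0.23 for *ndhD* and -0.011 and 0.042 for *ndhH*. *ycf3*, *cemA*, *rps18*, *psbN* and *rpl32* were listed at 0 in at least 1 of these libraries, and none of the 9 was called in the comparison of tissues. For all of them the value in the HTR5::GFP line was the lower one.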

How the results depend on the processing

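Counts of calls depended most on scaling and on the dividing libraries. Rescaling on nuclear genes gave 2 higher members, quantile normalization 1, and rescaling on the chloroplast genes themselves, which removes their common shift, 16 higher and 8 lower with a median of -0.14. Over all annotations the first 2 of these gave 5459 and 5770 higher and 5600 and 5243 lower, against 9282 and 3271 as deposited. The last gave 12267 higher and 996 lower of 18212 annotations tested, beside 64 members tested. Leaving out 1 library gave 5 to 7 members higher and 13 to 41 lower, and 5661 to 8624 annotations higher and 1868 to 2999 lower. The median log2 fold change of the members stayed below 0 under every alternative run, from -1.07 to -0.14, and the ratio of sums stayed between 0.340 and 0.660. Pseudocounts of 0.1 and 10, the filter, and leaving out repeated, short or overlapping genes kept counts within 1.5 times. The replicate block pairs libraries of 1 line: with it 38 members were lower and 10 higher, 8 loci gained a call (*psbJ*, *psbE*, *petB*, *ndhB*, *ndhA*, *psaC*, *clpP* and *psbZ*) and no other call changed; as a mean within lines the ratio of sums was 0.478. Of the single loci, the sign changed under rescaling for *rps4* (-0.12), *rpoA* (-0.18), *rpl16* (-0.072), *rpl22* (-0.12) and *ndhH* (-0.21); under quantile normalization for *rps4* (-0.35), *rpoA* (-0.30), *rpl22* (-0.12) and *ndhH* (-0.56); and under rescaling on chloroplast genes for *atpA* (0.31), *atpF* (0.15), *atpI* (0.21), *ycf4* (0.28), *rps18* (0.27), *clpP* (0.30) and *rpl2* (0.25). Leaving out 1 library in turn moved across 0 the log2 fold changes of *ycf3* (-0.32 to 1.61), *ycf4* (-0.63 to 0.21), *cemA* (-1.997 to 0.68), *rpl33* (-2.34 to 0.96), *rps18* (-0.87 to 0.77), *psbN* (-2.62 to 1.66), *rpoA* (-0.11 to 0.44), *rpl32* (-2.59 to 1.13), *ndhD* (-1.23 to 0.15) and *ndhH* (-0.023 to 0.054). The cause was not tested. Of 25 loci called lower, 11 were called lower under all alternatives other than rescaling on chloroplast genes (*psbD*, *psaB*, *psaA*, *ndhJ*, *ndhK*, *ndhC*, *atpE*, *atpB*, *petA*, *rpl23* and *ndhI*), and of 10 called higher, 1 (*rpoC2*). Of the 11, *ndhI* was listed at 0 in both dividing libraries, so that it showed no spread between them. FPKM give no read number, so depth limits on single low values are unknown.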
